A study of Homo sapiens with 4 samples.

Results

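The 7SK, 7SL and RNase MRP RNAs are short noncoding RNAs made by RNA polymerase III, and their abundance was compared here between RNA recovered with FLAG-tagged ORC1 and the nuclear RNA from which it was precipitated. The set comprised 8 named genes: RN7SK, RMRP, RN7SL1, RN7SL2, the copies RN7SL4P, RN7SL396P and RN7SKP9, and the noncoding gene ENSG00000259001. They were chosen with their ratios of immunoprecipitate to Input already known, so those ratios are given as a description with no test. Of the 8 genes, 5 were matched to a row among the 63677 of the counts table. All 5 passed the filter on low counts that left 14645 genes. The GENCODE v44 identifiers of RMRP, RN7SL1 and RN7SL2 match no row. Whether these RNAs were counted under other identifiers was not determined, and they are not analysed here.

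RNA sequencing was performed on 4 libraries from nuclei of HCT116, a human colorectal carcinoma cell line, transfected for 48 h with pcDNA3.1-ORC1-3xFLAG, a plasmid for expression of tagged ORC1, a subunit of the origin recognition complex. The groups were 2 ORC1-FLAG immunoprecipitates (IP), made with the FLAG antibody M2 without crosslinking, and the 2 nuclear lysates before precipitation (Input), so all 4 libraries carry the plasmid. Replicate numbers 1 and 2 are shared by the IP and the Input of each RIP. The series has no control-antibody library, so RNA held by beads or antibody was not measured apart from RNA held by ORC1-FLAG. For their RIP of endogenous ORC1, the authors report that control IgG yielded no detectable RNA. Nothing in the labels says that the replicates came from separate cultures, so p-values measure only the spread between these libraries.

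Total counts were 27483148 and 20280445 in the IP and 14677002 and 9213877 in the Input libraries. ORC1, the transfected gene, was at 1108 and 18551 CPM (scaled counts relative to library size) in the IP and at 333 and 5063 in the Input. It was higher in the IP in both replicates but differed between the replicates. The plasmid carries a codon-optimized ORC1 sequence, and the part of these counts that comes from it was not measured. The 7 epithelial markers examined summed to between 1573 and 3056 scaled CPM, of which KRT8 alone made up 974 to 2055. CDX1 was at 0 in all 4 libraries, VIL1 at 0.284 or less and CDX2 at 8.87 to 11.1. The 3 markers of leukocytes, endothelium and fibroblasts summed to at most 0.114. CPM were taken relative to library totals multiplied by TMM factors (trimmed mean of M values), and a log2 ratio is the log2 of IP over Input CPM within one replicate number, with 0.5 CPM added to each.

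7SK RNA is the scaffold of a nuclear particle in which HEXIM proteins hold the kinase P-TEFb (CDK9 with a cyclin T) inactive, while LARP7 binds its 3′ end and MEPCE caps its 5′ end. 7SL RNA is the backbone of the signal recognition particle (SRP), which is assembled with its proteins in the nucleolus before export and targets nascent secretory proteins to the endoplasmic reticulum. RNase MRP RNA and the related RNase P RNA are the catalytic subunits of nucleolar and nuclear ribonucleoproteins that cleave ribosomal RNA precursors and the 5′ leaders of transfer RNA precursors, and they share most of their proteins. The human genome also holds many copies of the 7SL and 7SK genes, most of them truncated or diverged pseudogenes.

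The sequences decide which rows can be read as separate RNAs, so RN7SK is shown beside RN7SKP9, its copy in the set. Sequences were read from GRCh38 at GENCODE v44 coordinates and are written 5′ to 3′. RN7SK lies at chr6:52995620-52995950 on the plus strand (331 bases, of which bases 1 to 300 are printed) and RN7SKP9 at chr13:99205708-99206006 on the plus strand. Capitals mark bases with no match in the partner, by local alignment.
RN7SK: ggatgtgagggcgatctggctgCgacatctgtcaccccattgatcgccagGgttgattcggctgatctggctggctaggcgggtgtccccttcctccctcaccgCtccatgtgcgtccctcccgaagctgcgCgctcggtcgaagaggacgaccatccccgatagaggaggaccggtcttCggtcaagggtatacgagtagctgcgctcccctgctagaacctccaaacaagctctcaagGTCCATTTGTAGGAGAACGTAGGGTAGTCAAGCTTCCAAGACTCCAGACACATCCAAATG
RN7SKP9: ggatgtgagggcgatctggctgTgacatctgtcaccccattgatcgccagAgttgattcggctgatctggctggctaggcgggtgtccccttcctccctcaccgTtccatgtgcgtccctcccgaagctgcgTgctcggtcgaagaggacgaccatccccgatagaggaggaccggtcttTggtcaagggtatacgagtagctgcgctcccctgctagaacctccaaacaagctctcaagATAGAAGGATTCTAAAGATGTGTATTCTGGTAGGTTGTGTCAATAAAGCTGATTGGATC
Bases 2 to 240 of RN7SKP9 matched bases 1 to 239 of the 328-base v44 gene, which begins at base 2 of the printed row, at 97.9% identity with 5 differing positions, and the remaining 3′ part of RN7SKP9 did not align. Bases 1 to 235 of RN7SL4P matched RN7SL1 at 97.0% identity, with 7 differing positions, and the bases after 235 did not align. For RN7SL396P the matched part was bases 4 to 199, at 96.4% identity.

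**Figure D1:**
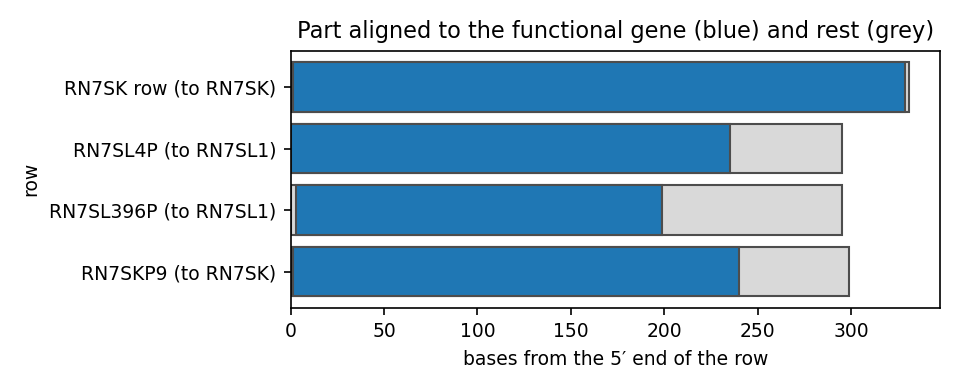
Length of each row in bases from its 5′ end, with the part that aligned locally to RN7SL1 or to the v44 RN7SK gene in blue and the rest in grey. The aligned part ends at base 235 of RN7SL4P, 199 of RN7SL396P and 240 of RN7SKP9, while the RN7SK row aligned over 328 of its 331 bases.

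The 3 copies of the set thus share one build, a 5′ part nearly identical to the functional RNA followed by a 3′ end that did not align. This bears on the counts, since a read from the shared part may have been placed on either gene. Stretches of 32 bases that occur once in the chromosomes of GRCh38 made up 12.3% of the stretches of RN7SK (37 of 300), 31.8% of those of RN7SL4P (84 of 264), 58.0% of RN7SL396P (153 of 264) and 58.6% of RN7SKP9 (157 of 268). Within the matched part only 27 of 204 stretches of RN7SL4P were unique, against 57 of the 60 that reach outside it. Of the stretches of RN7SL4P, 42.4% also stand in RN7SL1, and of those of RN7SL396P and RN7SKP9, 24.2% and 24.6% stand in RN7SL1 and RN7SK. No stretch of RN7SL1 was unique and 4.83% of those of RN7SL2 were, and these RNAs matched each other at 98.7% identity (295 of 299 positions), whereas every stretch of RMRP was unique. How reads with several alignments were counted is not stated, so the counts of a copy cannot be told apart from reads of its functional gene.

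RN7SK, the functional 7SK gene, was the most counted gene of the table in both Input libraries and was lower in both IP libraries. Its counts were 115575 and 110183 in Input replicates 1 and 2, and 17607 and 10223 in the IP. It held 0.787% and 1.20% of all Input counts, against 0.0641% and 0.0504% of the IP counts, where it ranked 222 and 272 among all genes. Its scaled level was 6619 and 9430 CPM in the Input and 846 and 582 CPM in the IP. Input exceeded IP by 7.83-fold in replicate 1 and 16.2-fold in replicate 2 (log2 ratios of -2.97 and -4.02). The replicates differed in both groups, with Input replicate 2 at 1.42 times Input replicate 1. The row used is the older 7SK identifier ENSG00000202198, which covers the 328 bases of the v44 RN7SK gene, whose own identifier has no row.

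RN7SL4P, the most counted 7SL copy, was far lower in the IP. It had 1042 and 606 counts in the Input and 5 and 19 in the IP, or 59.7 and 51.9 CPM against 0.240 and 1.08 CPM. The Input replicates lay close together and far above both IP libraries, and the IP replicates differed by 4.50-fold on few counts. Without a pseudocount the Input exceeded the IP by 249-fold and 48.0-fold, and the log2 ratios were -6.35 and -5.05, a spread set largely by those 5 and 19 IP counts.

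RN7SL396P and RN7SKP9 were counted in the Input alone, at much lower levels. RN7SL396P had 67 and 38 counts in the Input (3.84 and 3.25 CPM) and 0 in both IP libraries. RN7SKP9 had 27 and 16 Input counts (1.55 and 1.37 CPM) and 0 IP counts. Set against 3 counts over the IP group, the limit that a count of 0 allows, RN7SL396P was at least 46.1-fold lower in the IP and RN7SKP9 at least 18.9-fold lower. These limits cover counting error only, and their log2 ratios with the pseudocount (-3.12 and -2.91 for RN7SL396P, -2.03 and -1.90 for RN7SKP9) are held near 0 by the 0.5 CPM added.

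ENSG00000259001 is a single-exon row annotated as a long noncoding RNA at chr14:20343048-20343685 on the minus strand (638 bases), and it contains the gene of the RNase P RNA. By v44 coordinates RPPH1 fills bases 279 to 611 of the row, 52.2% of its length, on the same strand. The v44 identifier of RPPH1 matches no row. Counts were made on an hg19 annotation of unstated release, so the bases counted under this identifier may differ from those given here. Bases 249 to 548 of the row (chr14:20343138-20343437) are shown, 30 bases before RPPH1 and then RPPH1 in capitals, because they mark where in the row the RNase P RNA begins.
ENSG00000259001: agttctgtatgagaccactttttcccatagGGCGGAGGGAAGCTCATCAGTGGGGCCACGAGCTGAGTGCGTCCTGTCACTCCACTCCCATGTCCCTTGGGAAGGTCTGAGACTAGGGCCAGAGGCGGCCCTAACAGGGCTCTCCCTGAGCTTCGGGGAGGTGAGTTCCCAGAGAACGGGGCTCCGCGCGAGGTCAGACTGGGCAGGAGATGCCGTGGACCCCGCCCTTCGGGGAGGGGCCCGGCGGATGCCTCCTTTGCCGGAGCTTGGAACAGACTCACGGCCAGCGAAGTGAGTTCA
All of its 607 stretches of 32 bases were unique in the genome, unlike those of the other 4 rows. The row had 20041 and 15628 counts in the Input and 298 and 399 in the IP. Its level was 1148 and 1337 CPM in the Input against 14.3 and 22.7 CPM in the IP. Replicate 2 stood at 1.17 times replicate 1 in the Input and at 1.59 times replicate 1 in the IP. Input exceeded IP by 80.2-fold and 58.9-fold (log2 ratios of -6.28 and -5.85), a narrower spread between replicates than for RN7SK or RN7SL4P. It ranked 39 and 26 among all genes by counts in the Input. A table of counts per row cannot place the reads within the row, so the part of them that comes from RPPH1 was not measured. In v44 the row also shares 71 bases (11.1%) with exons of PARP2 on the opposite strand. PARP2 had 4439 and 3387 counts in the IP and 970 and 476 in the Input, the opposite direction.

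**Figure D2:**
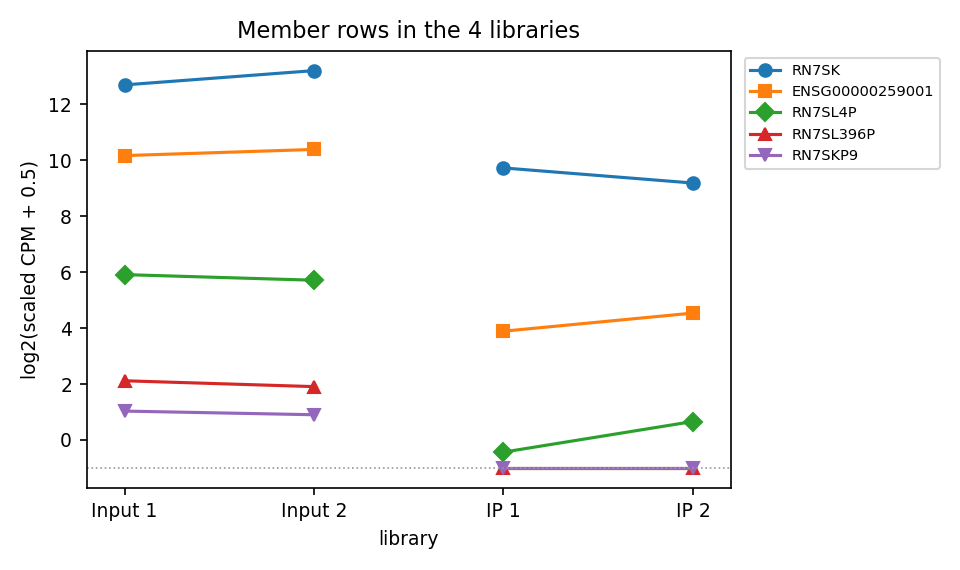
Level of the 5 rows in each library, as log2 of TMM-scaled CPM plus 0.5, with lines joining libraries of one group and a dotted line at the value of a row with 0 counts. In all 5 rows, chosen with this contrast known, the Input lies above the IP within both replicates. RN7SL396P and RN7SKP9 fall on the dotted line in the IP. Of all genes tested, 41.7% were lower in the IP than in the Input within both replicates.

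Per length, taken from v44, the rows kept a fixed order in the Input. RN7SK stood at 19998 and 28489 CPM per kb, ENSG00000259001 at 1799 and 2096, RN7SL4P at 202 and 176, RN7SL396P at 13.0 and 11.0 and RN7SKP9 at 5.17 and 4.58. No neighbors in that order overlapped between the 2 Input libraries. In the IP, RN7SK (2555 and 1757 CPM per kb) again stood above ENSG00000259001 (22.4 and 35.6) and RN7SL4P (0.814 and 3.66), and the remaining copies were at 0.

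The edgeR fit of all 14645 genes gave log2 fold changes of -3.49 for RN7SK, -6.43 for RN7SL4P and -6.07 for ENSG00000259001. From the lowest value upwards they ranked 87, 8 and 9 among all genes tested, and the rows at 0 in the IP, RN7SL396P and RN7SKP9, ranked 1 and 2, where the fitted value depends on the prior count. In that fit 8.3% of genes were called depleted (log2 fold change below -1 with an adjusted p under 0.05) and 10.5% enriched (above 1). With the replicate number as a block these shares were 13.4% and 13.4%. Of all calls 55.9% were enriched with TMM scaling, 41.2% with upper-quartile scaling and 10.4% with library size only, which moved the median log2 fold change of all genes from 0.01 to -0.16 and -0.59, and the RN7SK row to at lowest -4.12. Since the rows were chosen with this contrast known, nothing is read from their calls. Counted as a family, by adding all 7SK rows before scaling, the fold change was -3.48, since the RN7SK row held 99.7% and 99.6% of the Input counts of its family and 99.3% and 98.5% of the IP counts.

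The other copies of both genes show whether a low IP level held across the 2 families. The table had rows for 602 copies of 7SL and 289 of 7SK, the 3 of the set included, and for RMRPP5, a copy of RNase MRP RNA that had no count. A count in any library was found for 261 of the 7SL and 96 of the 7SK copies, and 6 copies of each family passed the filter. Together the 7SL copies had 1572 and 1526 counts in the Input and 112 and 209 in the IP (log2 ratios of -3.94 and -3.40). The 7SK copies had 292 and 391 Input counts and 127 and 158 IP counts (-1.38 and -1.84). RN7SL4P alone held 66.3% and 39.7% of the Input counts of the 7SL copies, but 4.46% and 9.09% of their IP counts.

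Copies close to the functional gene were alike in build. Against RN7SL1 or RN7SK, the copies had median identities of 83.0% (7SL) and 85.4% (7SK) over the aligned part. At 95% identity or more stood 6 copies of 7SL and 8 of 7SK, and 5 of the 6 and 8 of the 8 started within 5 bases of the 5′ end of the functional RNA. None of these 14 reached within 5 bases of its 3′ end. Their alignments ended between bases 196 and 235 of RN7SL1, of 299 bases (median 215.5), and between bases 238 and 269 of RN7SK, of 328 (median 239).

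Taken as a sum, the 7SL copies that share the most sequence with RN7SL1 had the lowest IP to Input ratios. In 6 copies at least 10% of the 32-base stretches stand in RN7SL1, and their summed level was 72.2 and 68.6 CPM in the Input and 0.336 and 1.37 CPM in the IP (log2 ratios of -6.44 and -5.21). Without RN7SL4P and RN7SL396P the 4 others stood at 8.65 and 13.4 CPM in the Input and 0.0960 and 0.284 CPM in the IP (-3.94 and -4.15). The 515 copies that share no stretch with RN7SL1 summed to 14.0 and 54.2 CPM in the Input and 4.37 and 8.82 CPM in the IP (-1.58 and -2.55), and the 81 copies in between gave -1.89 and -1.92. Both replicates thus placed the sum over the 4 copies below the less similar copies, but this sum rests mostly on RN7SL128P. That copy had 109 and 131 of the 151 and 157 Input counts, and 1 and 4 of the 2 and 5 IP counts.

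For 7SK this order appeared once RN7SKP176 was left out. The 9 copies with at least 10% of their stretches in RN7SK gave log2 ratios of -1.24 and -1.43, close to the 202 copies that share none (-1.30 and -2.35) and the 78 in between (-1.30 and -1.57). RN7SKP176 held most of the IP counts of the 9, with 89 and 67, against 58 and 39 in the Input (0.32 and 0.17), and its fitted log2 fold change of 0.28 was not called and was -0.32 with library size only. It lies wholly within exonic bases of PLCG2, a phospholipase C gene, on the same strand, and PLCG2 was itself enriched in the IP (log2 fold change of 1.33 ± 0.30, SE, adjusted p = 0.0241 by edgeR), though not with library size only (0.74). Without RN7SKP176 the 8 others had 4 and 9 IP counts and 138 and 107 Input counts, with log2 ratios of -3.60 and -3.25. These 8 include RN7SKP9 of the set, chosen with its ratio known, with 27 and 16 Input counts and 0 in the IP. No value was taken without both RN7SKP176 and RN7SKP9. RN7SKP173, the other copy whose IP level matched its Input level (8 and 30 counts against 7 and 22), belongs to the 78, which without it gave -1.61 and -2.33. Leaving out these 2 copies was chosen after their values were seen.

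Of all copies, 24 had at least 20 counts over the 4 libraries, 15 of 7SL and 9 of 7SK, among them the 3 of the set. Several passed this limit through their Input counts alone, so their share with a low ratio is not counted. At such low counts the ratios are held near 0 by the pseudocount. After RN7SL4P the copies with the highest Input level were RN7SL128P, with 109 and 131 Input counts and 1 and 4 IP counts (log2 ratios of -3.62 and -4.01), and RN7SKP255, with 89 and 63 Input counts and 2 and 5 IP counts (-3.23 and -2.91). RN7SL128P and RN7SKP255 share 14.6% and 36.2% of their stretches with their functional gene. Across the 15 copies of 7SL the shared percentage and the mean log2 ratio gave a Spearman rho of -0.836, and across the 9 copies of 7SK of -0.305. These points come from the same 4 libraries and related sequences, and they include the 3 copies of the set, chosen with their ratios known. Since several copies passed the limit through Input counts alone, the rho values only describe these rows. No relation is read from them.

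**Figure D3:**
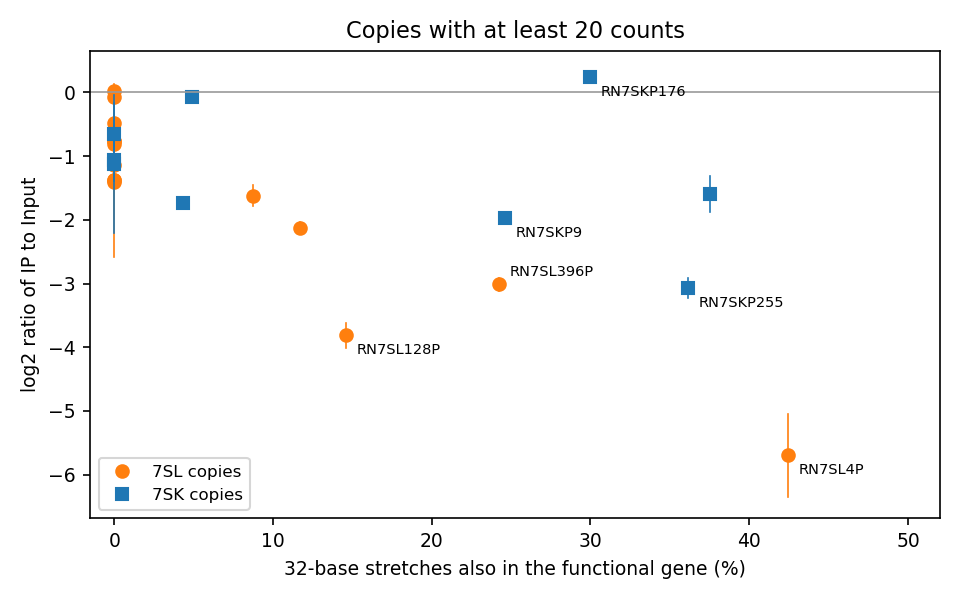
Log2 ratio of IP to Input for the 24 copies with at least 20 counts, as the mean (point) and the 2 replicate values (ends of the line), against the percentage of their 32-base stretches that stand in the functional gene. RN7SL4P lies lowest, and RN7SKP176, within PLCG2, lies above 0. At low counts the 0.5 CPM added holds the ratios near 0, so no relation is read from the points.

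By its pattern over the 4 libraries, the median profile of the 5 rows was matched most closely by RN7SL128P, with a root mean square difference of 0.377 log2 units between centred profiles. COX7A2, a cytochrome c oxidase subunit (0.409), RN7SKP255 (0.421), the histone gene H4C3 (0.430) and the ribosomal protein gene RPS21 (0.437) came next, and the median over all genes tested was 1.82. These are genes that were high in both Input and low in both IP libraries, and the likeness was taken over 4 libraries only.

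Among the 11496 rows with no v44 identifier, the 3 with the highest Input level were also lower in both IP libraries. ENSG00000265150 had 86924 and 95498 counts in the Input and 651 and 1940 in the IP (log2 ratios of -7.29 and -6.20), and ENSG00000258486 had 72780 and 67457 against 455 and 1248 (-7.54 and -6.34). The remaining row had 49915 and 79034 counts in the Input and 3306 and 24060 in the IP (-4.17 and -2.30), a smaller difference, and its IP replicates differed by 8.62-fold in scaled CPM. The reference tables used here pair these identifiers with no symbol and none was assigned, so whether any of them stands for RMRP, RN7SL1 or RN7SL2 was not determined.

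The list of other RNA polymerase III RNAs held 12 symbols, of which 9 were matched to a row and 2 passed the filter. BCYRN1, a primate RNA that regulates translation in neurons and derives from an Alu element, was depleted from the IP, with 14 and 8 counts against 40 and 46 in the Input (log2 fold change of -2.43 ± 0.58, SE, adjusted p = 0.0273 by edgeR). This call was lost without IP replicate 1 (-2.70) or IP replicate 2 (-2.14). VTRNA1-3, a vault RNA, had 0 and 3 counts in the IP and 14 and 20 in the Input and did not pass the test (-3.83 ± 1.14, adjusted p = 0.0511), but was called with the replicate block (-3.88, adjusted p = 0.00031), RLE scaling (-3.85), library size only (-4.40), no count filter (-3.79), DESeq2 (-3.90) and limma voom (-4.05). On these few counts its fold change was -2.76 without IP replicate 1 (not called), and -7.36 without IP replicate 2 and -4.25 without Input replicate 1 (both called). RNY1, a Y RNA, had 12 counts in Input replicate 2 and 0 in the other libraries.

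The mRNAs of the proteins that bind these RNAs or transcribe their genes moved in both directions. Of 58 such mRNAs tested, 12 (20.7%) were enriched in the IP and 7 (12.1%) depleted, against 10.5% and 8.3% of all genes tested, and their median log2 fold change was 0.26 with TMM scaling, 0.08 with upper-quartile scaling and -0.36 with library size only, against medians of 0.01, -0.16 and -0.59 over all genes. Without Input replicate 2 it was -0.08. The block gave 15 enriched and 8 depleted, with SRP72, POLR3G (1.30) and GTF3C6 (1.64) gained as enriched, HEXIM2 and POLR3F (-1.03) gained as depleted and RPP40 lost, and library size only gave 5 and 14. POLR3G, GTF3C6 and POLR3F are named because of this change, after their values were seen. The enriched mRNAs were long, with a median exonic length of 7513 bases against 2220 for the depleted ones and 4024 for the 39 not called. Over all genes tested the medians were 7980, 3786 and 5003 bases, so length moved with the calls in the same way, and its part in them was not tested.

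Of 7 mRNAs for 7SK proteins, LARP7 was enriched and none was depleted. LARP7, which binds and stabilizes 7SK RNA, was at 156 and 117 CPM in the IP and 51.3 and 14.2 CPM in the Input (log2 fold change of 2.05 ± 0.55, adjusted p = 0.0384 by edgeR). Its Input replicates differed more than its IP replicates, and the fold change was 3.30 without Input replicate 1, 1.26 without Input replicate 2 and no longer called without IP replicate 1 (1.86). HEXIM2, an inhibitor of P-TEFb, had the lowest value of the 7 and did not pass (-1.09 ± 0.47, adjusted p = 0.133), and was called depleted with the block (-1.09, adjusted p = 0.00573).

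Of 8 mRNAs for SRP proteins and the SRP receptor, 3 were depleted and 1 was enriched. SRP9, a subunit of the Alu domain of the particle, stood at 6.34 and 4.15 CPM in the IP against 44.2 and 20.7 CPM in the Input (-2.63 ± 0.42, adjusted p = 0.0121). SRP19, which prepares 7SL RNA for SRP54, was depleted as well (-1.78 ± 0.35, adjusted p = 0.0178), as was the receptor subunit SRPRB (-1.18 ± 0.28, adjusted p = 0.0276), whose call was lost without Input replicate 1 (-0.96) or IP replicate 2 (-0.86). SRP68, which pairs with SRP72 on the RNA, was enriched (1.05 ± 0.26, adjusted p = 0.0289), but not without IP replicate 1 (0.93) or Input replicate 2 (0.80), with upper-quartile scaling (0.88) or with no count filter (1.03). SRP72 had a fold change of 1.11 ± 0.34 and did not pass (adjusted p = 0.0584), and passed with the block (1.15, adjusted p = 5.40e-05), with DESeq2 (1.11), without Input replicate 1 (1.62) and without IP replicate 2 (1.34).

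Of 10 tested mRNAs for the proteins of RNase MRP and RNase P, 1 was enriched and 3 were depleted. POP1, the largest shared protein, was at 371 and 300 CPM in the IP and 87.2 and 87.1 CPM in the Input, with replicates that lay close together (1.95 ± 0.25, adjusted p = 0.0105). The subunits POP7 (-1.20 ± 0.25, adjusted p = 0.0192), RPP14 (-1.03 ± 0.22, adjusted p = 0.0214) and RPP40 (-1.01 ± 0.29, adjusted p = 0.0478) were depleted. Each of these 3 calls was lost without IP replicate 1 (-1.05, -0.90 and -1.06), that of RPP14 also with DESeq2 (-0.99), and that of RPP40 also with the block (-0.99), RLE scaling (-1.04) and, just short of the limit of -1, DESeq2 and limma voom. RPP40 was at -0.64 and POP7 at -0.94 without Input replicate 1, and neither was then called, nor was RPP40 without IP replicate 2 (-0.87).

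Of 13 mRNAs for RNA polymerase III subunits, 4 were enriched and 1 was depleted. The catalytic subunits POLR3A (1.05 ± 0.27, adjusted p = 0.0357) and POLR3B (1.29 ± 0.22, adjusted p = 0.0132) were enriched with POLR3D (1.18 ± 0.26, adjusted p = 0.0218) and POLR3GL (1.36 ± 0.33, adjusted p = 0.0292). POLR3K, a small subunit, was depleted (-1.30 ± 0.33, adjusted p = 0.0337). POLR3B kept its call without each library in turn, at 1.21 to 1.40. The call was lost for POLR3A without Input replicate 1 (0.84) or IP replicate 2 (1.00), with upper-quartile scaling (0.87) or with no count filter (1.06), for POLR3D without IP replicate 1 (0.98) or with upper-quartile scaling (0.99), for POLR3GL without IP replicate 1 (1.02) or Input replicate 2 (0.94), and for POLR3K without Input replicate 1 (-0.85) or IP replicate 2 (-1.07).

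Of 20 mRNAs for transcription factors and regulators of RNA polymerase III, 5 were enriched and none was depleted. BDP1, a subunit of TFIIIB, had the highest value, at 304 and 325 CPM in the IP against 80.8 and 49.6 CPM in the Input (2.27 ± 0.31, adjusted p = 0.0105). GTF3C1 (1.95 ± 0.26, adjusted p = 0.0105) and GTF3C3 (1.86 ± 0.25, adjusted p = 0.0105) encode subunits of TFIIIC. GTF3C1 stood at 793 and 761 CPM in the IP and 184 and 219 CPM in the Input. BRF1, another TFIIIB subunit (1.16 ± 0.22, adjusted p = 0.0169), and SNAPC4 (1.63 ± 0.26, adjusted p = 0.0120), the large subunit of the complex that binds the 7SK promoter, were enriched too. SNAPC2, a further subunit of that complex, had the lowest value and did not pass (-0.64 ± 0.25, adjusted p = 0.102). All 5 enriched calls of this list held without each library in turn, and that of BRF1 was lost with upper-quartile scaling (0.98).

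**Figure D4:**
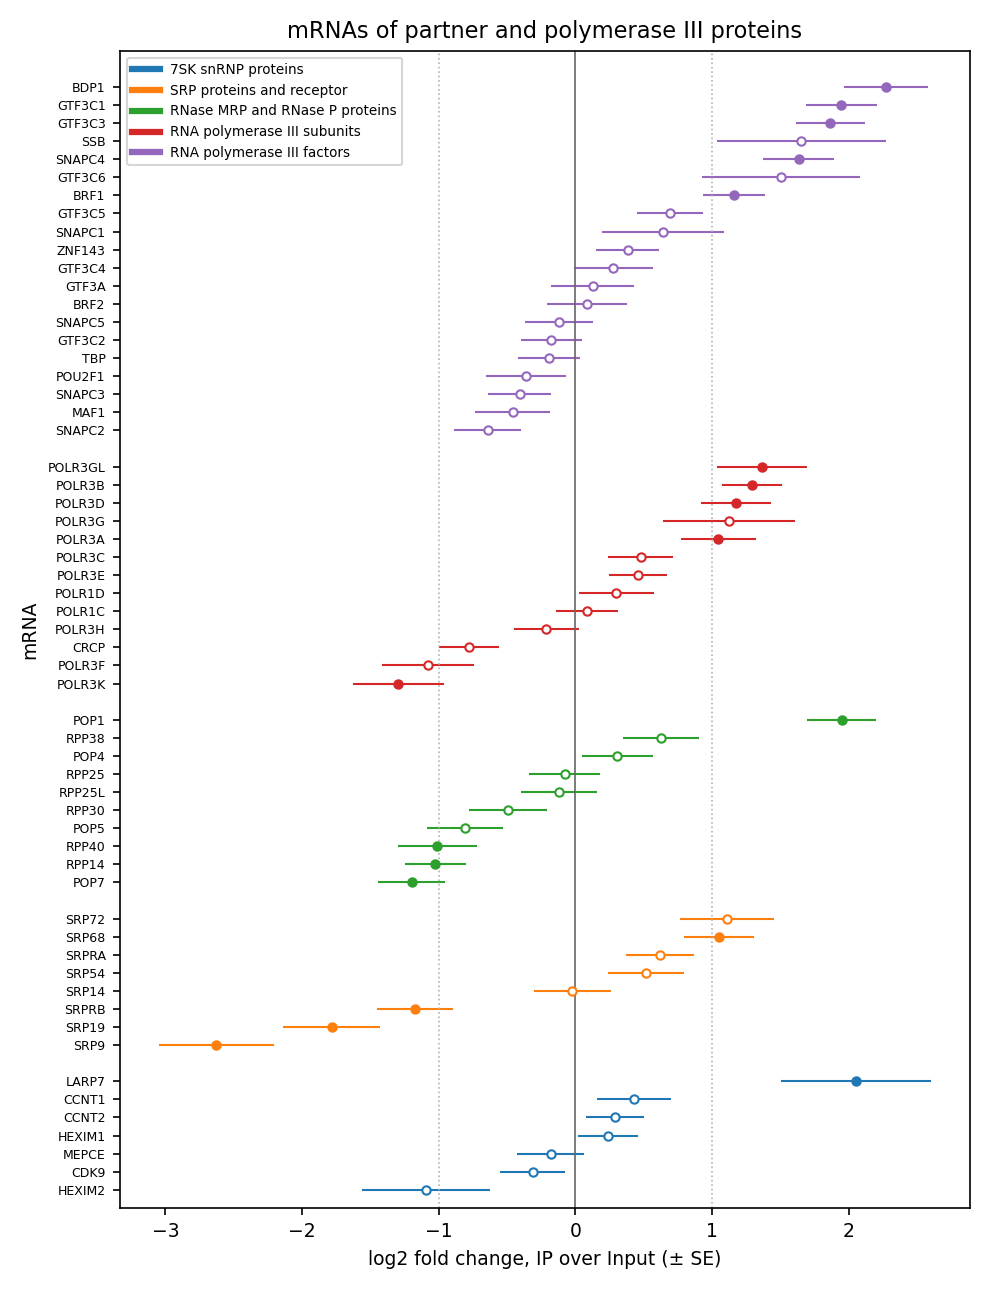
Log2 fold change of IP over Input with its SE for the 58 protein mRNAs tested, grouped by list, with filled points for called genes, open points for the others and dotted lines at -1 and 1. LARP7, POP1, BDP1, GTF3C1 and GTF3C3 lie highest, and SRP9 and SRP19 lowest.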

How the data were processed

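Native RIP-seq of ORC1-FLAG was analysed in 2 IP and 2 Input libraries. Nuclear lysate was sonicated and precleared, precipitates were treated with DNase, and libraries were made with a stranded total RNA kit after removal of ribosomal RNA. The values deposited are whole-number read counts for each gene that were not normalized. Per the methods and labels, the authors trimmed reads with Trimmomatic, aligned them with STAR to hg19 and counted them with featureCounts against an Ensembl annotation; the release, the strand setting and the handling of reads with several alignments are not given in the sources used here. Symbols, coordinates and sequences came from GENCODE 44 on GRCh38, another build, joined by gene identifier, and 11496 of 63677 rows had no match. Reads carry no molecular identifiers.

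Counts were fitted with edgeR 4.0.16 in R 4.3.3 (quasi-likelihood test with robust dispersions, TMM scaling, filterByExpr, group as the only term, Benjamini-Hochberg adjustment over 14645 genes). Genes were called where the adjusted p was under 0.05 and the log2 fold change was beyond 1 in either direction. IP libraries had TMM factors of 0.758 and 0.868, and Input libraries of 1.19 and 1.28. Same-numbered IP and Input libraries come from the same RIP according to the labels, and their deviations from the group means correlated over the 14645 genes (Pearson r = 0.645). A replicate block was therefore an alternative. With 2 libraries per group both pairs give the same r by construction. Other alternatives were scaling by upper quartile, RLE or library size only, a filter of 1 CPM in 2 libraries or none, limma voom (limma 3.58.1), DESeq2 1.42.0, each library left out, a pseudocount of 2 CPM, family-summed counts and stretches of 24 in place of 32 bases.

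Copies were aligned locally to RN7SL1, RN7SK or RMRP with Biopython 1.88 (match 2, mismatch 3, gap opening 5, gap extension 2). Text names the set's rows, the top 3 copies per family by Input level, all called, highest and lowest genes of each protein list, the tested other RNA polymerase III RNAs, the 5 most similar genes and genes that overlap a named row. Sequences of the 7SL genes are not reported here. The members and lists were chosen with earlier results of these data known.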

Additional observations from a re-analysis of the deposited data

How the results depend on the processing

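The direction of every value of the RN7SK row, the only functional gene analysed, held under all alternatives (-4.12 to -3.19). With counts of 0 in the IP, the median fitted value of the 3 copies of the set is no bound: it was -7.63, with -8.01 by library size only, -7.23 by DESeq2, -6.74 by limma voom and -7.96 to -7.49 without each library in turn. With the copies at 0 set to their limit it was -5.53. A pseudocount of 2 CPM gave log2 ratios of -4.78 and -4.13 for RN7SL4P, -1.55 and -1.39 for RN7SL396P and -0.83 and -0.75 for RN7SKP9. With stretches of 24 bases, 1.62% of RN7SK, 18.8% of RN7SL4P, 51.5% of RN7SL396P and 43.5% of RN7SKP9 were unique.

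By library size only, which ignores the difference in composition between IP and Input, 380 genes were enriched and 3257 depleted, against 1542 and 1215, and 5 and 14 protein mRNAs, against 12 and 7. BRF1 (0.55), LARP7 (1.46), POLR3A (0.44), POLR3B (0.69), POLR3D (0.56), POLR3GL (0.75) and SRP68 (0.44) then lost their calls and SNAPC2 was depleted (-1.24). The replicate block, on pairs given by the labels, called 1960 genes enriched and 1957 depleted and changed the calls of 6 protein mRNAs and VTRNA1-3, as given in the report. Without each library in turn, 1291 to 1936 genes were enriched and 846 to 1801 depleted, with 8 to 16 and 3 to 10 protein mRNAs. No fold change of the set's rows, of the protein mRNAs named as called, highest or lowest in a list, or of BCYRN1 and VTRNA1-3 changed sign. Of the other named genes, RN7SKP176 (-0.32 to 0.41), RN7SKP173 (-1.47 to 1.21) and ORC1 (-1.22 to 4.75), of which ORC1 was called in 1 of 14 fits and the copies in none, did. The cause of these changes was not tested.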
